A study of Mus musculus with 32 samples.

Results

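Polycomb marks were described at 6 genes whose products the mouse oocyte stores for the egg and the early embryo: Zar1, Zar1l and Ybx2, which bind RNA, Npm2 and H1f8, which bind chromatin, and the kinase gene Mos. The 6 genes form a set of maternal RNA and chromatin factors chosen by name, out of 21887 protein-coding genes of the RefSeq annotation of GRCm38. For each gene, the window examined was the gene span plus 5 kb on each side. A gene counted as marked in a peak list if its window overlapped a peak by 1 bp or more, and the length of the window under peaks was recorded.

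The data came from CUT&Tag, in which an antibody directs a transposase to chromatin with a given histone mark so that the DNA around it is tagged and sequenced. Ovarian oocytes of the mouse were sampled in 16 groups of 2 samples, and 1 peak list per group was used, 10 for H3K27me3 and 6 for H2AK119ub. Wild-type (WT) oocytes were taken before birth at embryonic stage E18.5 and on postnatal day 1 (P1), as non-growing oocytes at day 6 (P6) and as growing oocytes at day 7 (P7), for both marks. All mutant groups and their controls carried Ddx4-Cre, a recombinase driven by a germ cell promoter. PRC1ctrl was Ring1-/- with Rnf2F/+, and PRC1cKO was labelled Ring1-/- with Ring1F/-. Both therefore lacked Ring1, and because the label names Ring1 where the control has Rnf2, the floxed gene of PRC1cKO is not settled here. These groups were profiled for H3K27me3 at P6 (non-growing) and P7 (growing). PRC2ctrl was EedF/+ and PRC2cKO was EedF/-, both profiled at P6 (non-growing) for both marks. The stage steps from P6 to P7 change the day and the growth state at once, which cannot be told apart.

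H3K27me3 is set by Polycomb repressive complex 2 (PRC2), which needs its subunit EED, and H2AK119ub is set by the ubiquitin ligases RING1 and RNF2 (RING1B) of Polycomb repressive complex 1 (PRC1). Both marks are known from silent or lowly transcribed genes. ZAR1 and its paralogue ZAR1L bind and stabilise stored maternal mRNA, YBX2 (MSY2) is the main mRNA-packaging protein of germ cells, NPM2 is the histone chaperone nucleoplasmin that remodels chromatin after fertilisation, H1F8 (H1oo) is the linker histone of the oocyte, and MOS starts the MAP kinase cascade that holds the egg in meiotic arrest. Transcription of these genes was not measured in the data used here.

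There was 1 list per group, so no replicate error could be computed and no difference was tested. The H3K27me3 lists held 49615 to 83994 peaks over 428.6 to 618.8 Mb, and the H2AK119ub lists 56584 to 80950 peaks over 244.2 to 728.3 Mb. One list stood apart: H2AK119ub at WT P7 covered 244.2 Mb with a median peak width of 2.19 kb, against 728.3 Mb and 7.0 kb at WT P6. Read depth is unknown. A window without a peak was below the authors' threshold, which is not the same as free of the mark. As each list pools many oocytes, a mark on fewer oocytes and less of it on each cannot be told apart. Windows of granulosa cell genes, which oocytes do not use (Foxl2, Fshr, Cyp19a1 and 5 more), were marked with H3K27me3 in 7 or 8 of 8 cases in every list. Those of the oocyte genes Ddx4, Dazl, Figla, Nobox, Kit, Gdf9, Sohlh1 and Lhx8 were marked in 6 of 8 at WT E18.5 and in 2 or 3 of 8 in every other list. Windows of the blood and endothelial genes Ptprc, Cd68, Adgre1, Pecam1, Cdh5 and Kdr were marked in 3 to 5 of 6. Among all genes, 48.7 to 59.6% were marked with H3K27me3.

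The stretches just upstream of the annotated starts are shown because they differ in CpG content and in how the marks covered them. They are 250 bases each from the RefSeq promoter table (GRCm38.p6), which held an entry for 4 of the 6 genes. CpG dinucleotides are in capitals, and all are written 5′ to 3′ on the strand of the gene. Zar1 is on the minus strand (chr5:72581085-72581334), as is Zar1l (chr5:150518160-150518409). H1f8 is on the plus strand (chr6:115944681-115944930), as is Ybx2, for which the first of 2 entries is shown (chr11:69935649-69935898). The starts in that table can lie inside the annotated gene span: the Zar1 stretch lies in it with all 250 bases, the Zar1l stretch with 35 and the Ybx2 stretch with 94.
Zar1: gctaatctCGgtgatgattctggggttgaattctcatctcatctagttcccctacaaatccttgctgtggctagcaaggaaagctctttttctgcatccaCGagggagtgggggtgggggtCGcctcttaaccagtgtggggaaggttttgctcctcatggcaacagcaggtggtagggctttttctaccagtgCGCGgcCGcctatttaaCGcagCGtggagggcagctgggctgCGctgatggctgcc
Zar1l: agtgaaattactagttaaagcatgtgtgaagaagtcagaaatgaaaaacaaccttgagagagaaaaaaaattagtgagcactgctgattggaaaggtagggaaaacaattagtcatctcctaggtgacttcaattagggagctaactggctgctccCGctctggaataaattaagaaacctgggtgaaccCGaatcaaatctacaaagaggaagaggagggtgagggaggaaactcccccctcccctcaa
H1f8: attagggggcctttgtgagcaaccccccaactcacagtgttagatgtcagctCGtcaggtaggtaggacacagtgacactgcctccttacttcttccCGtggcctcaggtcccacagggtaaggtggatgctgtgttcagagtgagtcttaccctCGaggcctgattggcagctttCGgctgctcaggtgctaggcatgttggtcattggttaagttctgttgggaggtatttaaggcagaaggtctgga
Ybx2: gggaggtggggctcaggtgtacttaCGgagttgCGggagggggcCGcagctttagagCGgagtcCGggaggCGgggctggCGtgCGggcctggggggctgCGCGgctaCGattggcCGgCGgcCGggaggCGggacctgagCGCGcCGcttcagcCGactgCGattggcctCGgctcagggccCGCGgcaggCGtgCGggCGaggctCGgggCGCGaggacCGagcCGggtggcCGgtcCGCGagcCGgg
The Ybx2 stretch held 35 CpG, more than 96.5% of the 17492 genes with an entry, whose median was 10. The Zar1 stretch held 9, the H1f8 stretch 4 and the Zar1l stretch 2. The 6 bases TAATTG, known as the core of the site bound by the oocyte factor NOBOX, were searched on both strands. They occurred at 2 places in the Zar1l stretch and at none in the other 3, and 6.5% of all such stretches (1139 of 17492) held them. In H3K27me3, the Zar1 stretch was wholly covered in 8 of 10 lists, and the CpG-rich Ybx2 stretch in 0 of 10. The H1f8 stretch was covered in 2 of 10, at WT E18.5 and P1. At Zar1l, 134 bases were covered at WT P6 and all 250 in PRC2ctrl. In H2AK119ub, peaks covered the whole stretch in 6 of 6 lists at Zar1, 5 of 6 at H1f8, 4 of 6 at Zar1l and 2 of 6 at Ybx2.

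In wild-type oocytes, H3K27me3 lay on 5 of the 6 windows at E18.5 (background 55.3% of all genes marked), on 5 at P1 (54.5%), on 4 at P6 (56.7%) and on 2 at P7 (59.6%). With all peaks, the set went from 5 to 2 while the share of all genes was 55.3% at first and 59.6% at P7. The P1 count depended on weak peaks: with the upper 50% of peaks by total signal, an equal number of peaks or an equal covered length, the counts were 5, 2, 3 and 2. At equal covered length, 1424 of all genes were lost from E18.5 to P1 and 411 gained. From P1 to P6 923 were lost and 1329 gained, and from P6 to P7 2424 and 1383. The contrast with all genes was therefore not seen at equal covered length. With the upper 50% of peaks, genes lost and gained over the 3 steps were 833 and 641, 898 and 1304, and 1546 and 2005. With an equal number of peaks they were 658 and 882, 964 and 1241, and 1184 and 2409. In PRC1ctrl, 2 were marked at P6 (55.0%) and 1 at P7 (54.0%), and in PRC1cKO 2 at P6 (55.1%) and 2 at P7 (54.6%). In PRC2ctrl 4 were marked (55.2%), and in PRC2cKO 2 (48.7%). H2AK119ub lay on 6 windows at WT E18.5 (78.2%), 5 at P1 (71.4%), 4 at P6 (76.8%) and 3 at P7 (62.2%), and on 6 in both PRC2ctrl (71.0%) and PRC2cKO (69.7%). With lists of equal covered length, the WT counts of H2AK119ub were 2, 3, 3 and 3, so the order of the stages did not hold. The windows of the 6 genes were short (median 15.56 kb, against 27.17 kb for all genes). Among the 7807 genes with a window in the same range of lengths, 48.2 to 61.0% were marked with H3K27me3 and 64.0 to 81.0% with H2AK119ub, close to the shares for all genes. With 6 genes, each member is 1 step of the count, so the patterns of the single genes follow.

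**Figure D1:**
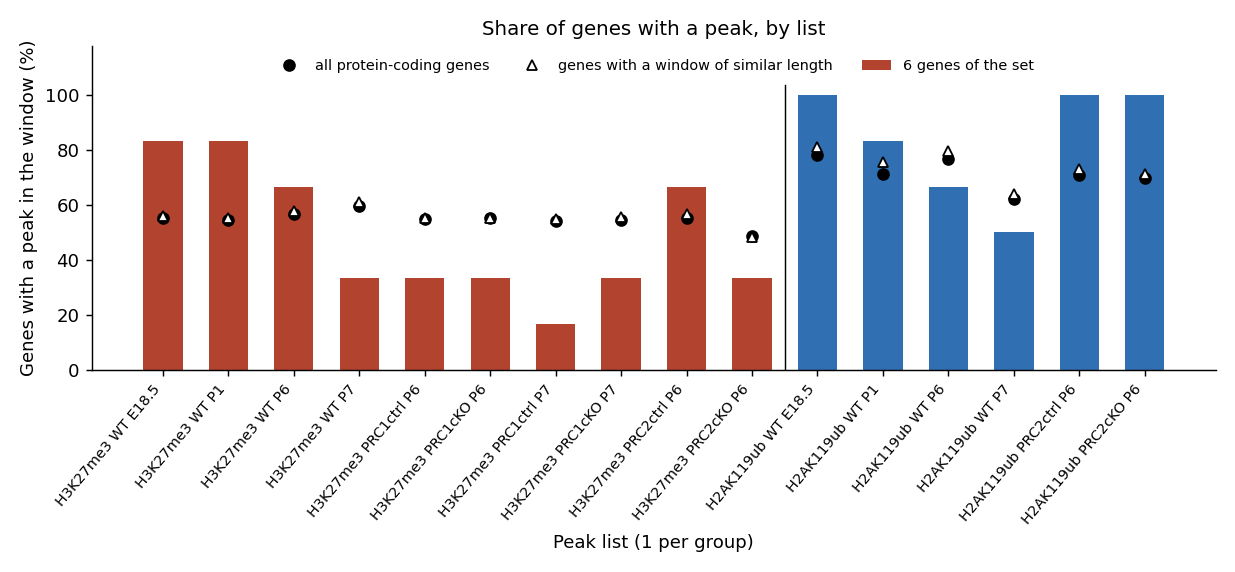
Share of genes with a peak in their window (%) in each of the 16 peak lists. Bars stand for the 6 maternal genes (red for H3K27me3, blue for H2AK119ub), filled circles for all protein-coding genes and open triangles for genes with windows of similar length. The H3K27me3 bars go from 5 of 6 genes at WT E18.5 to 2 of 6 at WT P7, while the circles of the H3K27me3 lists lie between 48.7 and 59.6%.

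**Figure D2:**
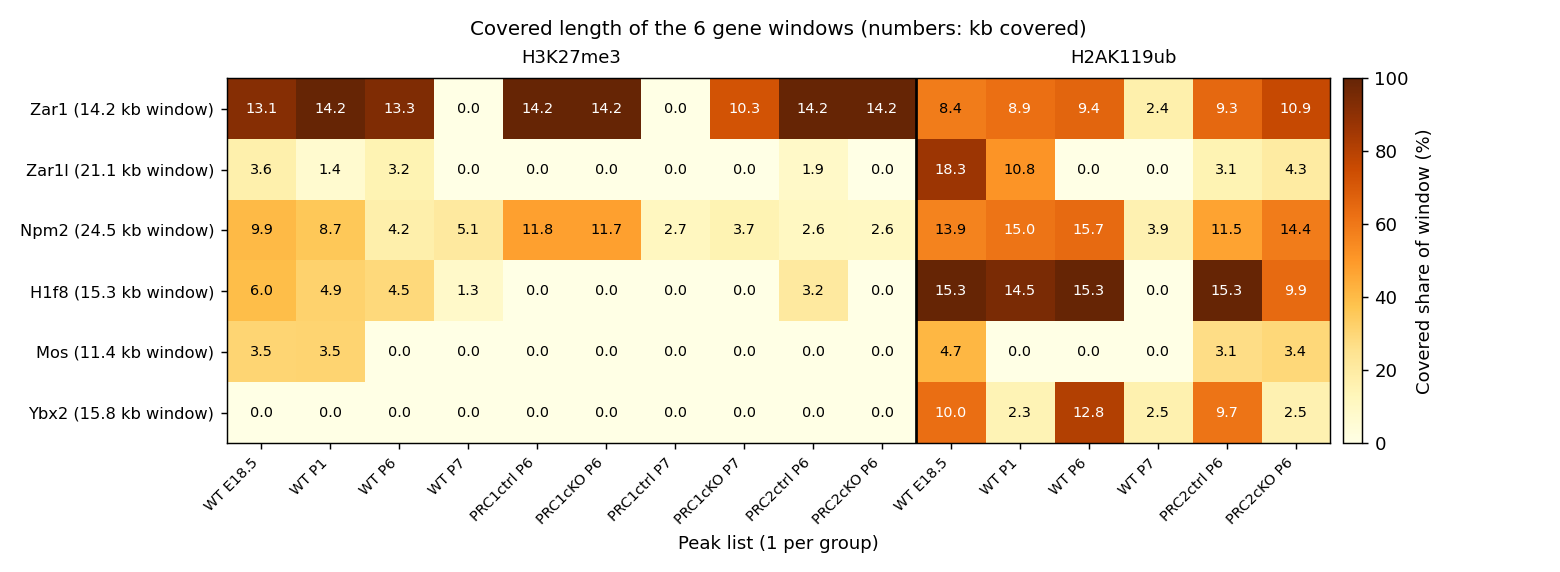
Covered length of each window in each peak list: colour gives the covered share of the window (%), the number in each cell the kb covered. The vertical line parts the 10 H3K27me3 lists from the 6 H2AK119ub lists. The Zar1 row is dark in every H3K27me3 list but those of WT and PRC1ctrl at P7. The Ybx2 row is empty for H3K27me3, and its H2AK119ub cells range from 14.5% (WT P1) to 81.2% (WT P6).

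Zar1 (gene ID 317755, chr5:72577113-72581361, window 14.25 kb), which encodes the mRNA-binding protein needed for the maternal-to-zygotic transition, had the longest H3K27me3 coverage of the 6 genes in 8 of the 10 lists and no peak in the growing oocytes of WT and PRC1ctrl. In WT the covered length was 13.12 kb at E18.5, 14.25 kb at P1, 13.35 kb at P6 and 0 at P7. The whole gene body lay under peaks at the first 3 stages. At P7 the nearest peak ended 6.12 kb from the gene, beyond its 3′ end, in the outer part of the region that the domain had covered before. PRC1ctrl followed the same course, with 14.25 kb at P6 and 0 at P7, and its nearest P7 peak was 6.0 kb away on the same side.

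In the group labelled PRC1cKO, the Zar1 window was covered over 14.25 kb at P6 and over 10.32 kb at P7, including the whole gene body. The P7 coverage came from a peak of 18.54 kb, whose total signal (column 4 of the list) was at or above that of 92.5% of peaks in its list, and from one of 3.84 kb. So at P7, 2 control lists had no peak at Zar1 and the PRC1cKO list had a wide one. The PRC1cKO P7 list covered less of the genome (463.3 Mb) than PRC1ctrl P7 (491.6 Mb) and WT P7 (618.8 Mb), and the part of this list difference in the result was not tested. When the lists were reduced to an equal covered length by total signal, the PRC1cKO value remained at 10.32 kb. The windows at 0 cannot change under a setting that only removes peaks. With a window of 10 kb on each side the calls differ, because the peak next to the gene then falls inside: 3.88 kb were covered at WT P7, 4 kb in PRC1ctrl and 18.23 kb in PRC1cKO.

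In PRC2ctrl and PRC2cKO at P6, H3K27me3 covered the whole Zar1 window, 14.25 kb in each. The peaks were 30.27 and 31.68 kb wide, with total signals at or above 97.0 and 97.9% of their lists. The labelled EedF/- genotype thus did not go with a shorter domain at this gene. Whole coverage in both lists was shared by 870 of the 1392 genes (62.5%) that were wholly covered in PRC2ctrl. How signals were scaled between lists is not given in the sources used here, so the amount of mark cannot be compared. For the stage step, 1515 genes (6.92%) had at least 90% of the window covered at WT P6, and 16 of them (1.06%) were uncovered at P7, Zar1 being 1 of these. The pattern follows the values of Zar1 itself, so this share is a description and no test of how rare the gene is.

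H2AK119ub was present at Zar1 in all 6 lists and, except at WT P7, covered less of the window than H3K27me3 did. It covered 8.35 kb at WT E18.5, 8.93 kb at P1, 9.45 kb at P6 and 2.4 kb at P7. In PRC2ctrl it covered 9.26 kb and in PRC2cKO 10.89 kb. At P7 the peak over the gene start was 2.08 kb wide, close to the list's median of 2.19 kb, and its total signal was at or above only 15.7% of the list. The WT P7 lists therefore had an H2AK119ub peak at the Zar1 start, near the low end of its list, and no H3K27me3 peak in the window. With the upper 50% of peaks, Zar1 had no H2AK119ub peak at WT P7.

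**Figure D3:**
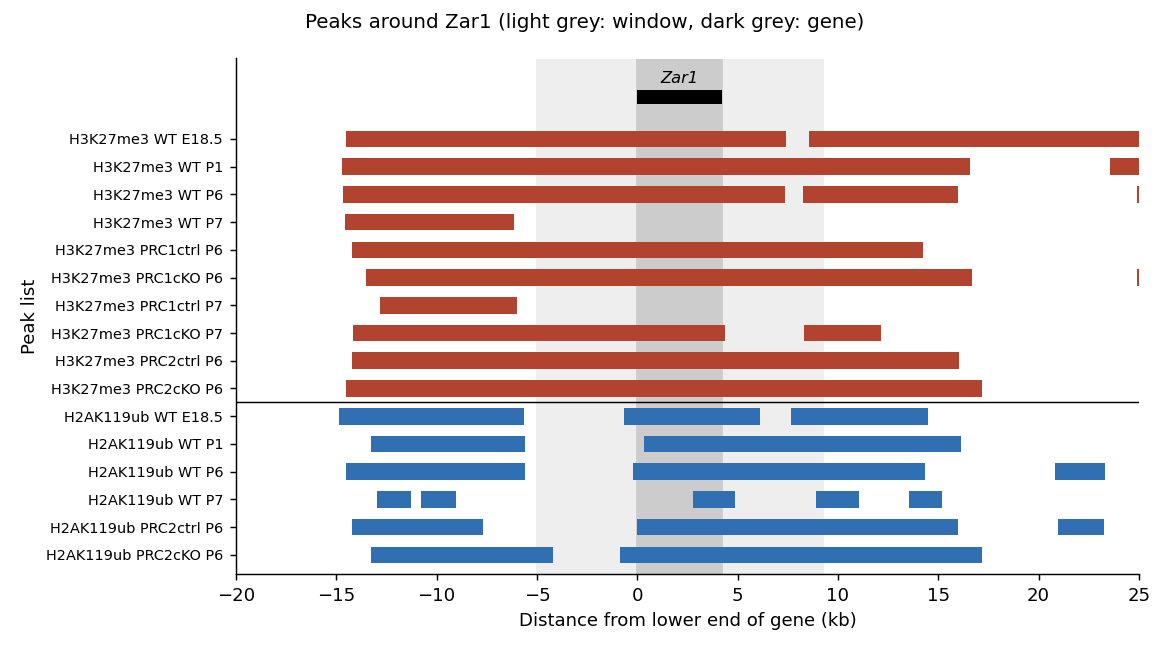
Peaks around Zar1 in the 16 lists. The x axis is the distance from the lower-coordinate end of the gene (kb), each row is a list, and bars are peaks (red H3K27me3, blue H2AK119ub, cut at the edges of the plot). The gene is read from right to left. The H3K27me3 bar that spans the gene in 8 lists stops short of the window, about 6 kb from the gene, in WT and PRC1ctrl at P7.

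Zar1l (545824, chr5:150507055-150518194, window 21.14 kb), the paralogue next to the DNA repair gene Brca2, had small H3K27me3 peaks in 4 of 10 lists. The covered length was 3.58 kb at WT E18.5, 1.44 kb at P1, 3.18 kb at P6 and 0 at P7, and 1.86 kb in PRC2ctrl. It was 0 in PRC2cKO and in all 4 PRC1 lists. At E18.5 and P1 the peaks lay beyond the 3′ end of the gene, and only WT P6 and PRC2ctrl had a peak at the gene start, 2.0 and 1.86 kb wide. By total signal, the E18.5 peak was at or above 60.8% of its list, the P1 peak at or above 4.15% and the start-side peaks at or above 9.15 and 15.3%. By highest signal (column 5), the start-side peaks were at or above 60.8 and 78.6%. In the 6 lists without a peak in the window, the nearest one was 73.87 to 77.5 kb from the gene.

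H2AK119ub at Zar1l was wide before birth and shortly after it and absent from the later WT lists. It covered 18.26 kb at E18.5, 10.85 kb at P1 and 0 at P6 and P7. Yet at P6 PRC2ctrl had 3.14 kb and PRC2cKO 4.29 kb, with start-side peaks at or above only 1.37 and 9.73% of their lists. The 3 P6 lists therefore did not show the same call, and the genotypes of WT and PRC2ctrl differ by 1 floxed Eed allele and the Cre.

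Ybx2 (53422, chr11:69935805-69941604, window 15.80 kb) had no H3K27me3 peak in any of the 10 lists, and a peak of H2AK119ub in all 6. H2AK119ub covered 9.98 kb at WT E18.5, 2.29 kb at P1, 12.82 kb at P6 and 2.54 kb at P7, and 9.69 kb in PRC2ctrl and 2.48 kb in PRC2cKO. At P1 and in PRC2cKO the peak lay beyond the gene, over the neighbouring glucose transporter gene Slc2a4. The nearest H3K27me3 peak was 10.31 to 47.65 kb from the gene. This combination was found at 865 of all genes (3.95%), while 26.0% of genes had H3K27me3 in none of the 10 lists and 53.4% had H2AK119ub in all 6. The combination was taken from Ybx2 itself, so its share is a description only.

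Npm2 (328440, chr14:70647296-70661802, window 24.51 kb), the nucleoplasmin gene, was marked in all 16 lists, as were 36.0% of genes in all H3K27me3 lists. Its H3K27me3 covered 9.93 kb at WT E18.5, 8.73 kb at P1, 4.22 kb at P6 and 5.1 kb at P7. In PRC1ctrl it covered 11.77 kb at P6 and 2.73 kb at P7, in PRC1cKO 11.73 and 3.7 kb, and in PRC2ctrl and PRC2cKO 2.64 and 2.57 kb. Where in the window the mark lay also differed. At E18.5 and P1 a separate peak of 6.26 or 4.88 kb lay inside the gene. From P6 on, the mark reached in only from the side of Fgf17, a growth factor gene, and touched the gene body over at most 103 bp in WT, in the PRC2 lists and in both PRC1 lists at P7. The exceptions were PRC1ctrl and PRC1cKO at P6, in which 1 peak of 52.63 or 40.18 kb ran over 46.7 or 46.4% of the gene body.

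H2AK119ub at Npm2 covered 13.86 kb at WT E18.5, 14.98 kb at P1, 15.7 kb at P6 and 3.87 kb at P7, and 11.5 kb in PRC2ctrl and 14.37 kb in PRC2cKO. At WT P6 it belonged to a peak of 205.66 kb, and 73.4% of the gene body was covered. At P7, 3.7% of the gene body was covered, in the list that also covered the least of the genome. The part of that list difference in the result was not tested.

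H1f8 (171506, chr6:115944931-115950242, window 15.31 kb), the oocyte linker histone gene, lay inside H2AK119ub domains. The mark covered 15.31 kb at WT E18.5, 14.54 kb at P1, 15.31 kb at P6 and 0 at P7. In PRC2ctrl it covered 15.31 kb and in PRC2cKO 9.86 kb. The domains over the whole window were 117.6, 120.94 and 91.6 kb wide at WT E18.5, WT P6 and PRC2ctrl. At P7 the nearest peak was 5.28 kb from the gene, just outside the window, in the list of short peaks. H3K27me3 at H1f8 was smaller and lay in 5 of 10 lists, with 5.99 kb at WT E18.5, 4.88 kb at P1, 4.46 kb at P6 and 1.26 kb at P7, and 3.2 kb in PRC2ctrl. It was 0 in PRC2cKO and in the 4 PRC1 lists. Only at E18.5 and P1 did it touch the gene body, over 4324 and 1379 bp. At P7 the 1.26 kb were the edge of a 27.22 kb peak over Plxnd1, a semaphorin receptor gene.

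**Figure D4:**
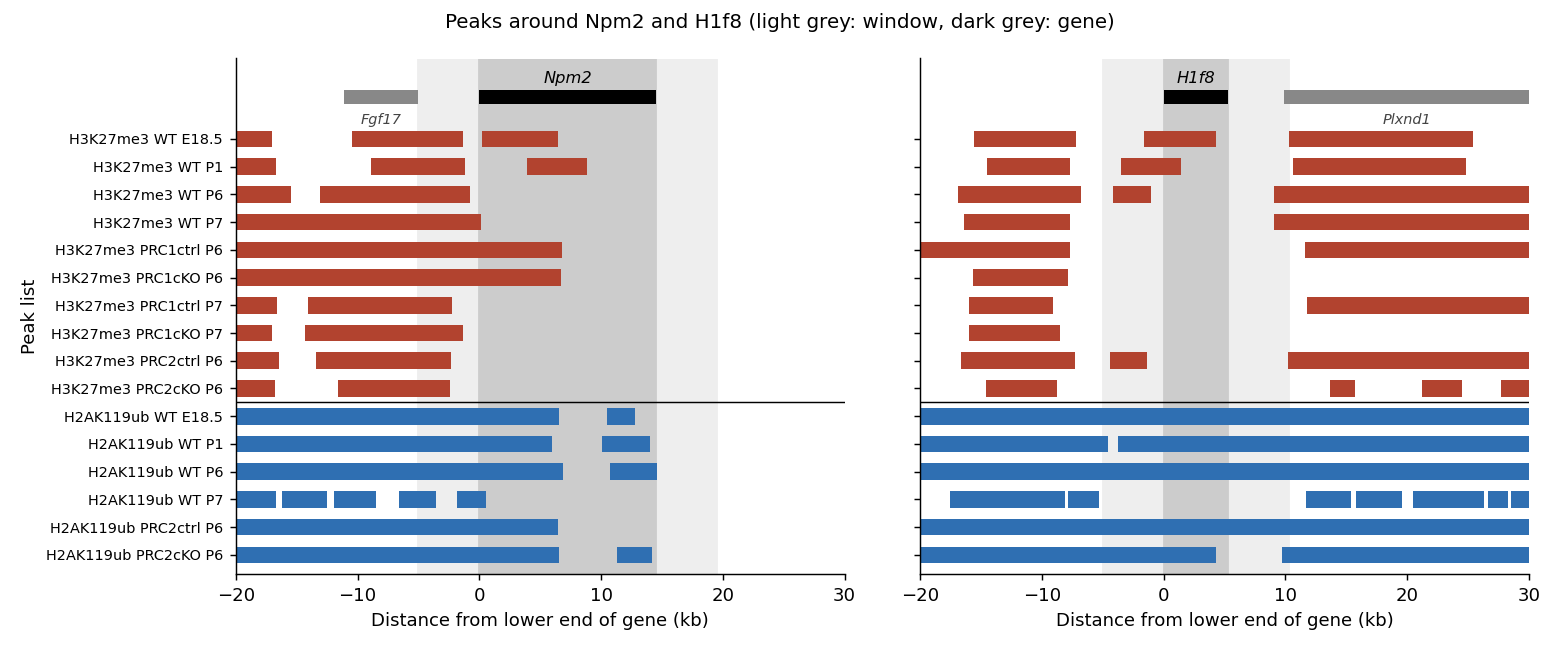
Peaks around Npm2 (left) and H1f8 (right) in the 16 lists, as distance from the lower-coordinate end of each gene (kb). Bars are peaks (red H3K27me3, blue H2AK119ub, cut at the edges), and the grey boxes at the top are the neighbours Fgf17 and Plxnd1. At WT P7 the H2AK119ub bars around both genes are short pieces, which leave the H1f8 window empty and cover 537 bp of the Npm2 gene body. H3K27me3 enters the body of Npm2 at WT E18.5 and P1 and in the 2 PRC1 lists of P6, apart from 103 bp at WT P7.

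Mos (17451, chr4:3870658-3872105, window 11.45 kb) had H3K27me3 in the 2 earliest lists only, and the P1 peak was among the weaker ones. It covered 3.51 kb at WT E18.5 and 3.55 kb at P1, each a single peak over the gene, and 0 in all 8 lists of P6 and P7. In 7 of those 8 lists the nearest peak was 81.39 to 87.83 kb away, and in PRC1cKO at P6 it was 12.15 kb away. The E18.5 peak was at or above 53.9% of its list by total signal and the P1 peak at or above 25.4%. With the upper 50% of peaks, an equal number of peaks or an equal covered length, Mos was unmarked at P1, so that its loss fell between E18.5 and P1. Of the 11191 genes marked at both early stages, 102 (0.911%) were unmarked in all 8 later lists. That pattern follows the values of Mos itself, so the share is a description only. H2AK119ub at Mos covered 4.74 kb at WT E18.5 and 0 at P1, P6 and P7, but 3.09 kb in PRC2ctrl and 3.36 kb in PRC2cKO at P6, with the latter peaks at or above 29.6 and 14.5% of their lists.

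**Figure D5:**
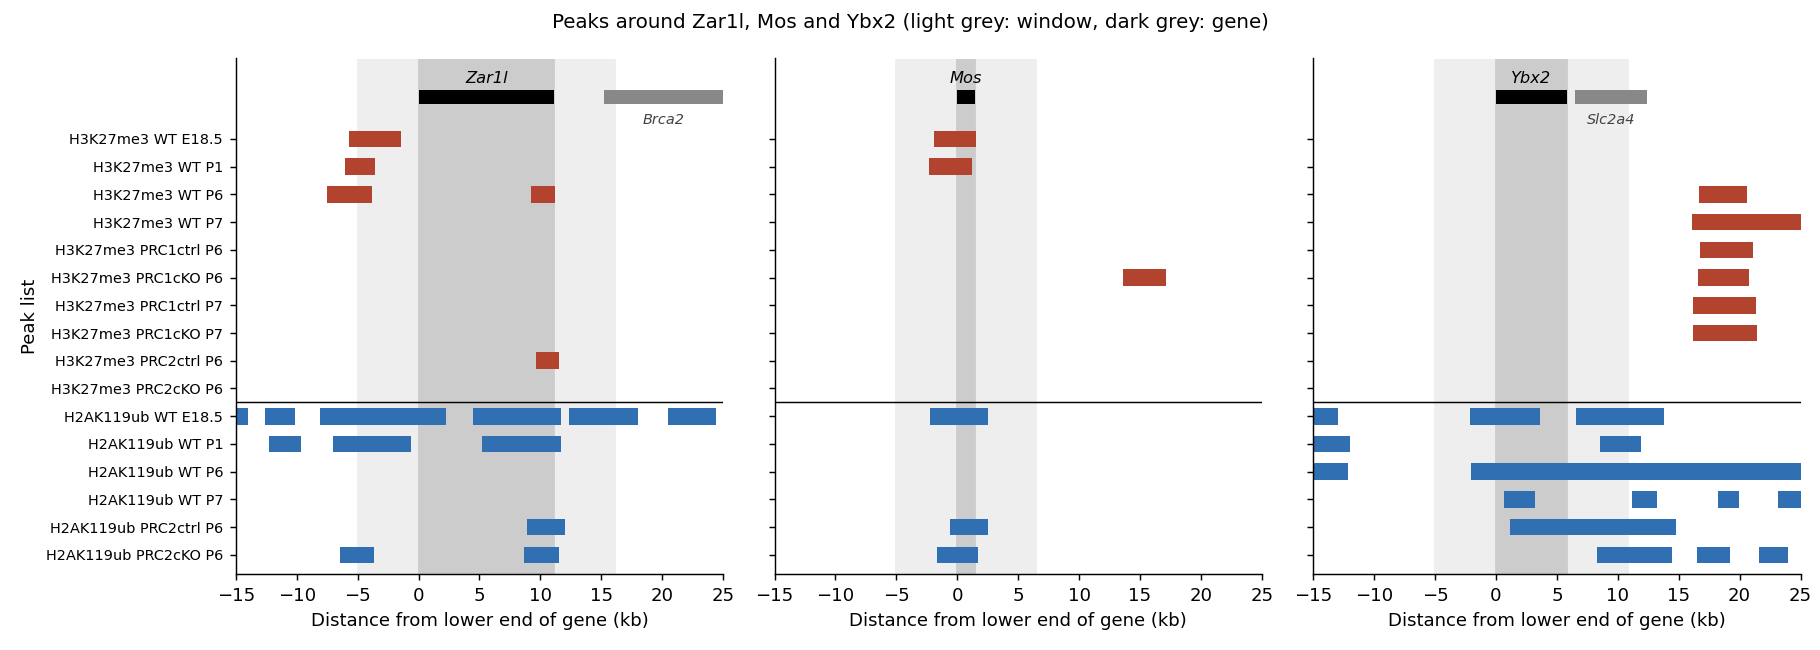
Peaks around Zar1l, Mos and Ybx2 in the 16 lists, as distance from the lower-coordinate end of each gene (kb). Bars are peaks (red H3K27me3, blue H2AK119ub, cut at the edges), and the grey boxes are the neighbours Brca2 and Slc2a4. Inside the Mos window, red bars occur at WT E18.5 and P1 only (a further one, for PRC1cKO at P6, lies 12.15 kb from the gene), and the red bars near Ybx2 lie more than 10 kb from the gene.

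Bases under both marks were counted in WT. At E18.5 every H3K27me3 base at Zar1l (3.58 kb), Npm2 (9.93 kb), H1f8 (5.99 kb) and Mos (3.51 kb) was also under an H2AK119ub peak, and at Zar1 7.44 of 13.12 kb were. At P1 Zar1 had 8.93 kb under both, Npm2 5.92 kb, H1f8 4.88 kb, Zar1l 1.44 kb and Mos 0. At P6 both marks met at Zar1 (8.54 kb), Npm2 (4.22 kb) and H1f8 (4.46 kb), and at P7 only at Npm2 (3.44 kb). The windows with both marks thus went from 5 to 1 of 6. The shares of all genes with both marks in the window were 48.9% at E18.5, 47.7% at P1, 51.2% at P6 and 50.7% at P7. At equal covered length, fewer windows had H2AK119ub at E18.5, so the E18.5 count depends on how much each list covers. The P7 count rests on the H2AK119ub list that covered 244.2 Mb. At H1f8, which had 1.26 kb of H3K27me3 at P7, the nearest peak of that list was 5.28 kb from the gene. Ybx2 had no base under both marks at any stage.

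Between consecutive WT stages, a gene that was marked in the first list and unmarked in the second was called lost, and the opposite gained. For H3K27me3, 0 of the 6 were lost from E18.5 to P1 (background 4.15%), 1 from P1 to P6 (Mos, background 3.96%) and 2 from P6 to P7 (Zar1 and Zar1l, background 6.81%). None was gained in these steps, for which the backgrounds were 3.32, 6.22 and 9.71%. For H2AK119ub, Mos was lost from E18.5 to P1 (background 9.33%), Zar1l from P1 to P6 (3.71%) and H1f8 from P6 to P7 (17.2%), and 0 were gained (2.53, 9.05 and 2.70%). Losses of 1 or 2 of 6 genes stand beside these shares as counts and were not tested. The balance of losses and gains over all genes depended on how much each list covers. At equal covered length, H3K27me3 from WT P6 to P7 went from 1490 genes lost and 2125 gained to 2424 lost and 1383 gained. H2AK119ub over that step went from 3771 lost and 590 gained to 384 lost and 7588 gained. In PRC1ctrl, Zar1 was lost from P6 to P7 (8.86%) and 0 were gained (7.85%). In PRC1cKO 0 were lost (6.91%) and 0 gained (6.41%) over the same step.

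Between control and mutant lists, PRC1cKO had the same calls as PRC1ctrl at P6 (0 lost, background 4.51%, and 0 gained, 4.66%). At P7 it differed by the gain of Zar1 (1 gained, background 8.30%, and 0 lost, 7.63%). From PRC2ctrl to PRC2cKO, H3K27me3 was lost at Zar1l and H1f8 (2 lost, background 8.79%, and 0 gained, 2.25%). At equal covered length the H3K27me3 balance over all genes turned, from 1924 lost and 492 gained to 626 lost and 1836 gained. H2AK119ub was neither lost (5.62%) nor gained (4.36%) at any of the 6. Control lists matched in stage and mark also differed from each other. From WT to PRC1ctrl at P6, Zar1l and H1f8 were lost (background 5.11%, with 0 gained, 3.37%), and from PRC1ctrl to PRC2ctrl the same 2 genes were gained (4.41%, with 0 lost, 4.18%). H1f8 was lost from WT to PRC1ctrl at P7 (7.67%, with 0 gained, 2.01%). From WT to PRC2ctrl at P6, the H3K27me3 calls were the same (0 lost, 4.12%, and 0 gained, 2.60%), and H2AK119ub was gained at Zar1l and Mos (2.43%, with 0 lost, 8.21%). The calls at Zar1l and H1f8 that separated PRC2cKO from its control therefore also separated 2 control lists, whereas Zar1 had the same H3K27me3 call in the 3 control lists of P6 and in the 2 of P7.

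Other genes of the same roles were read from lists chosen by name, with earlier results of these data known. Of 23 other maternal RNA genes, 4 were marked with H3K27me3 at WT P6 and 7 at P7 (1 lost, 4 gained), against 56.7 and 59.6% of all genes marked, 6.81% lost and 9.71% gained. The one lost was Pabpc1l, a poly(A)-binding protein gene, which went from 21.68 kb to 0. In PRC1ctrl 4 were marked at P6 and 2 at P7 (3 lost, 1 gained; all genes 8.86 and 7.85%). Eif4e1b, which encodes an oocyte cap-binding protein, went from 13.58 kb to 0 there and Pabpc1l from 7.14 kb to 0. In PRC1cKO at P7 7 were marked, against 2 in PRC1ctrl (6 gained, 1 lost; all genes 8.30 and 7.63%), with 5.2 kb at Eif4e1b and 9.17 kb at Pabpc1l. WT P7 also had 7 marked, so the PRC1ctrl list was the one with the fewest. Eif4e1b had 3.04 kb at WT P7, so the WT and PRC1ctrl lists of P7 differed at this gene.

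Of 27 other maternal chromatin genes, 9 had H3K27me3 at WT P6 and 7 at P7 (4 lost, 2 gained), beside the same 6.81 and 9.71% of all genes. Tet3, the DNA dioxygenase of the zygote, went from 84.43 kb to 0 in WT, from 92.86 kb to 0 in PRC1ctrl and from 96.96 kb to 0 in PRC1cKO, so that unlike Zar1 it was uncovered in all 3 P7 lists. At Dppa3, whose product guards maternal DNA methylation after fertilisation, coverage was 7.64 kb at WT P1, 0 at P6 and 8.03 kb at P7, but 0 in PRC1ctrl at P7 and 4.7 kb in PRC2ctrl at P6. H2AK119ub went from 22 to 15 of these 27 genes between WT P6 and P7 (8 lost, 1 gained; all genes 17.2 and 2.70%), Dnmt1 from 37.01 kb to 0. This P7 list is the one that covered 244.2 Mb and for which the balance over all genes turned at equal covered length. Of 9 other linker histone genes, 4 had H3K27me3 at WT P6 and 4 at P7 (1 lost, 1 gained). The shares of all genes were 56.7 and 59.6% marked, 6.81% lost and 9.71% gained. H1f0, a replacement linker histone gene, had H2AK119ub over its whole window of 12.29 kb at P6 and 0 at P7. Of 21 genes of the MOS and MAP kinase cascade and meiotic maturation, 8 had H3K27me3 at WT P1, 6 at P6 and 10 at P7. Marked among all genes were 54.5, 56.7 and 59.6%. Over the first step 2 were lost and 0 gained (all genes 3.96 and 6.22%). Over the second 0 were lost and 4 gained (6.81 and 9.71%). Wee2, an oocyte kinase that holds the meiotic arrest, went from 19.37 kb at P1 to 0 at P6, and Gpr3, a receptor that keeps cyclic AMP high in the oocyte, from 4.42 kb to 0. At P6 Wee2 had 7.32 kb in PRC1ctrl and 0 in PRC2ctrl, so the control lists differed.

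The 6 genes were also compared with all protein-coding genes on other chromosomes. The measure was the mean absolute difference of the covered share of the window over the 16 lists. Closest to Zar1 were Spint1, Wnt8a and Scrn2, at 6.57, 6.63 and 9.32 percentage points, against a median of 58.3 over genes on other chromosomes. Drap1 was closest to Zar1l (4.29 points, median 16.1), Zfp764 to Npm2 (7.23, median 30.3), Polr2l to H1f8 (8.31, median 35.1), Fam177a to Mos (4.70, median 16.1) and Pik3c2b to Ybx2 (3.22, median 16.9). Among themselves the 6 genes were 11.2 (Zar1l and Mos) to 59.0 points (Zar1 and Mos) apart, and the paralogues Zar1 and Zar1l were 58.7 points apart. Several lists come from the same genotype or stage, and low distances for Mos, Zar1l and Ybx2 come with many windows at 0.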

How the data were processed

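H3K27me3 and H2AK119ub were profiled by CUT&Tag in 32 samples of mouse oocytes, 2 per group, with Drosophila S2 cells added (for example 2000 to 1000 oocytes) and 150 bp reads, per the labels' protocols. The submitters' processing notes name 5 tools and give no roles for them: SAMtools, deepTools, Bowtie2, Trim Galore (version 0.6.10) and Picard (version 3.0.0). They list GRCm38, mm10 and dm6 as builds. Which program called the peaks, at what threshold, whether signals were scaled to the spike-in, and how both samples of a group became one list is not given in the sources used here. Each deposited list has no header. Judged from the values, column 4 of the deposited lists is the total signal of a peak and column 5, a score here, its highest signal, both as the authors left them. Both were used only to rank or filter peaks within a list.

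Gene spans came from RefSeq GRCm38. Overlap and covered length were computed with Python 3.11.15, numpy 2.4.6 and pandas 2.3.3, with a flank of 5 kb and a minimum overlap of 1 bp, and the code was tested on simulated data. All 6 genes were reported in every list. Of the other gene lists, at most 2 genes per direction with the largest change of covered share were named. For each of the 6 genes, up to 3 genes on other chromosomes with the closest coverage were named. No test was made, as each group had 1 list. The 6 alternatives were no flank, a 10 kb flank, an overlap of 500 bp, the upper 50% of peaks by column 4, an equal number of peaks and an equal covered length. The 6 genes and the gene lists were chosen with earlier results of these data known. H1f9 was not found in the annotation by that symbol.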

Additional observations from a re-analysis of the deposited data

Results flagged for a closer look

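Npm2 was the gene of the set whose H3K27me3 coverage moved in opposite directions under the same comparison in different groups. From P6 to P7, the covered length of its window changed by 0.88 kb in WT, by -9.04 kb in PRC1ctrl and by -8.02 kb in PRC1cKO. From PRC1ctrl to PRC1cKO it changed by -0.04 kb at P6 and by 0.97 kb at P7. These differences between groups were not tested, since each group had 1 list.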

How the results depend on the processing

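No paired analysis was possible because each group had 1 peak list, so its 2 replicate numbers carry no values, and for the same reason no replicate could be left out. Of the 96 calls (6 genes in 16 lists), 96 were kept with an overlap of 500 bp, 91 with an equal number of peaks, 88 with a 10 kb flank, 84 with no flank, 84 with the upper 50% of peaks and 79 with an equal covered length. The absence of H3K27me3 at Zar1 at P7 in WT and PRC1ctrl could change only with the 10 kb flank, and did, since the other settings only remove peaks or overlap. Apart from the smaller or larger windows and lists that the settings make, the cause of the moves was not tested.

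Only counts that moved by a larger factor, or to or from none, are listed below, so an unlisted count can also have changed. For example, the 10 kb flank also marked Zar1 with H3K27me3 at WT P7 (3.88 kb). The upper 50% of peaks left Zar1l and Mos without H2AK119ub in PRC2ctrl. With a 10 kb flank, 3 genes were marked with H3K27me3 in PRC1ctrl P7. Lost were 1 (WT H3K27me3 P6 to P7), 0 (WT H2AK119ub P6 to P7), 0 (PRC1ctrl P6 to P7), 1 (PRC2ctrl to PRC2cKO H3K27me3), 1 (WT to PRC1ctrl P6) and 0 (WT to PRC1ctrl P7). Gained were 0 (PRC1ctrl to PRC1cKO P7) and 1 (PRC1ctrl to PRC2ctrl). With no flank, H3K27me3 marked 2 genes at WT P6, 1 at WT P7, 0 in PRC1ctrl P7, 1 in PRC1cKO P7, 2 in PRC2ctrl and 1 in PRC2cKO. Lost were 3 (WT H3K27me3 P1 to P6), 2 (WT H2AK119ub E18.5 to P1), 2 (PRC1ctrl P6 to P7), 1 (PRC1cKO P6 to P7), 1 (PRC2ctrl to PRC2cKO, each mark), 1 (WT to PRC1ctrl P6) and 1 (PRC1ctrl to PRC2ctrl). Gained were 1 each for WT P1 to P6 (both marks), WT H3K27me3 P6 to P7, WT to PRC1ctrl P6 and PRC1ctrl to PRC2ctrl.

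With the upper 50% of peaks, 2 genes were marked at WT P1 (H3K27me3) and 1 at WT P7 (H2AK119ub). Lost in WT H3K27me3 were 3 (E18.5 to P1), 0 (P1 to P6) and 1 (P6 to P7), in WT H2AK119ub 2 (E18.5 to P1) and 3 (P6 to P7), and 1 each from PRC2ctrl to PRC2cKO (H3K27me3) and WT to PRC1ctrl P6. Gained were 1 each for WT P1 to P6 (both marks) and PRC1ctrl to PRC2ctrl, and 0 for WT to PRC2ctrl H2AK119ub. With an equal number of peaks, 2 were marked at WT P1 (H3K27me3). Lost in WT H3K27me3 were 3, 0 and 1 over the 3 steps, in WT H2AK119ub 2 from E18.5 to P1, and 1 from WT to PRC1ctrl P6. Gained were 1 each for WT P1 to P6 (both marks) and WT to PRC2ctrl H3K27me3.

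With an equal covered length, 2 genes were marked at WT P1 (H3K27me3), and H2AK119ub marked 2 at WT E18.5, 3 at WT P1 and 3 in PRC2ctrl. Lost in WT H3K27me3 were 3, 0 and 1 over the 3 steps, in WT H2AK119ub 0 from E18.5 to P1, and 1 each from PRC2ctrl to PRC2cKO (H3K27me3), WT to PRC1ctrl P6 and WT to PRC2ctrl H2AK119ub. Gained were 1 for each WT H2AK119ub step, WT H3K27me3 P1 to P6, PRC2ctrl to PRC2cKO H2AK119ub, WT to PRC2ctrl H2AK119ub and PRC1ctrl to PRC2ctrl. Over all genes, the balance of lost and gained turned in 12 of the 17 comparisons at equal covered length. It turned in 5 with an equal number of peaks and in 0 with a 500 bp overlap. With no flank, a 10 kb flank or the upper 50% it turned in 2 each. For WT H3K27me3 from P6 to P7, genes lost and gained were 1442 and 2203 with a 10 kb flank. They were 1226 and 1620 with no flank, 1546 and 2005 with the upper 50%, and 1184 and 2409 with equal numbers. The counts of the set above were not tested against such values. Read depth per sample is unknown and bounds none of these values.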
